A study of Mus musculus with 15 samples.

Results

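The SLC25 family, the mitochondrial carriers, was taken here as every gene symbol that starts with Slc25a in the first column of the 3 deposited tables. The rule gave 47 genes of 23393, the same 47 in each table. The kidneys came from C57BL/6 mice that all carried floxed Esrrg alleles, written ERRg fl/fl, and those labelled knockout also carried the Sim1-Cre transgene, in which the Sim1 promoter drives Cre recombinase. Esrrg encodes ERRγ, an orphan nuclear receptor that binds and activates many genes of oxidative metabolism. The 15 kidneys form 6 groups. The groups of 3-week males have 2 controls and 3 knockouts, those of 3-week females 2 of each, and those of 3-month males 3 of each, with littermates as controls. Where in the kidney Sim1-Cre acted is not stated in these sources.

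SLC25 proteins sit mostly in the inner mitochondrial membrane and move nucleotides, phosphate, carboxylates, amino acids and cofactors between the cytosol and the matrix. The export of ATP made in the matrix and the entry of many of its substrates depend on them. The proximal tubule and the thick ascending limb, the segments that do most of the kidney's reabsorption, are dense in mitochondria and depend on these exchanges.

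Values per library were not used here: each table gives the authors' mean of normalized counts over its libraries, a log2 fold change, its standard error (SE) and a p-value. Summed over genes the means came to 47568700 normalized counts for 3-week males, 33925341 for 3-week females and 18839759 for 3-month males. The steps of the lowest means fitted 4, 4 and 5 libraries, against 5, 4 and 6 in the labels, so some labelled libraries may not have entered. By the sign of the fold changes at each step, 2 were positive and 2 negative in each 3-week table. In 3-month males 2 were positive and 3 negative. Against the labels this would leave the knockouts of 3-week males a library short, and those of 3-month males too if positive means higher in knockouts. The source names of the 3-month knockout libraries say female where titles and sex labels say male. In that table the X-inactivation gene Xist had a mean of 11.9 normalized counts, against 23849 in the table of females, all in the authors' deposited tables.

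Esrrg had log2 fold changes of 0.82 ± 0.20 and 1.04 ± 0.17 (SE) in 3-week males and females, and -0.87 ± 0.57 with no p-value in 3-month males, in the authors' deposited tables. Its reads may come from exons outside the deleted part, and the gene is no check of the labels. No header says which genotype is the numerator. Here positive means higher in the kidneys labelled knockout, a reading taken from the title, which says that ERRγ coordinates mitochondrial functions. The fall of the carriers is part of that reading and no evidence for it, and the opposite reading would turn every sign below. That Slc25a24 moved against most other carriers does not depend on it.

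Of the 47 carriers 31 were called in at least 1 table, that is, had an adjusted p under 0.05 in the authors' deposited DESeq2 table. In 3-week males 38 were tested, 11 were lower and 1 was higher, where 17.3% of all tested genes were called, 8.52% lower and 8.81% higher. In 3-week females 42 were tested, 14 were lower and 1 was higher (all tested genes: 18.7% called, 10.4% lower and 8.29% higher). In 3-month males 34 were tested, 20 were lower and 3 were higher (all tested genes: 57.5% called, 27.8% lower and 29.8% higher). The median log2 fold change of the tested carriers was -0.35, -0.31 and -0.69 in this order, and that of all tested genes was -0.01, 0.01 and 0.01. Read against the background, the calls in 3-week kidneys were 31.6% and 35.7% of the tested carriers, and in 3-month males 67.6%.

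With libraries scaled to their total counts in place of the authors' size factors, every log2 fold change rises, by 0.18 in 3-week males, 0.15 in 3-week females and 0.49 in 3-month males. The carriers' medians are then -0.17, -0.16 and -0.20, and those of all tested genes 0.17, 0.16 and 0.51. The calls of carriers become 5 lower and 1 higher, 8 lower and 3 higher, and 15 lower and 6 higher. The share of all tested genes called with this scaling is not given here, so these counts show no excess or lack of calls. Of all calls, 75.2%, 73.9% and 84.0% are then in the higher direction, against 50.8%, 44.2% and 51.7%. Changes of single carriers are given below on the authors' scale, and the tested values whose sign depends on it are listed in the closing section.

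**Figure D1:**
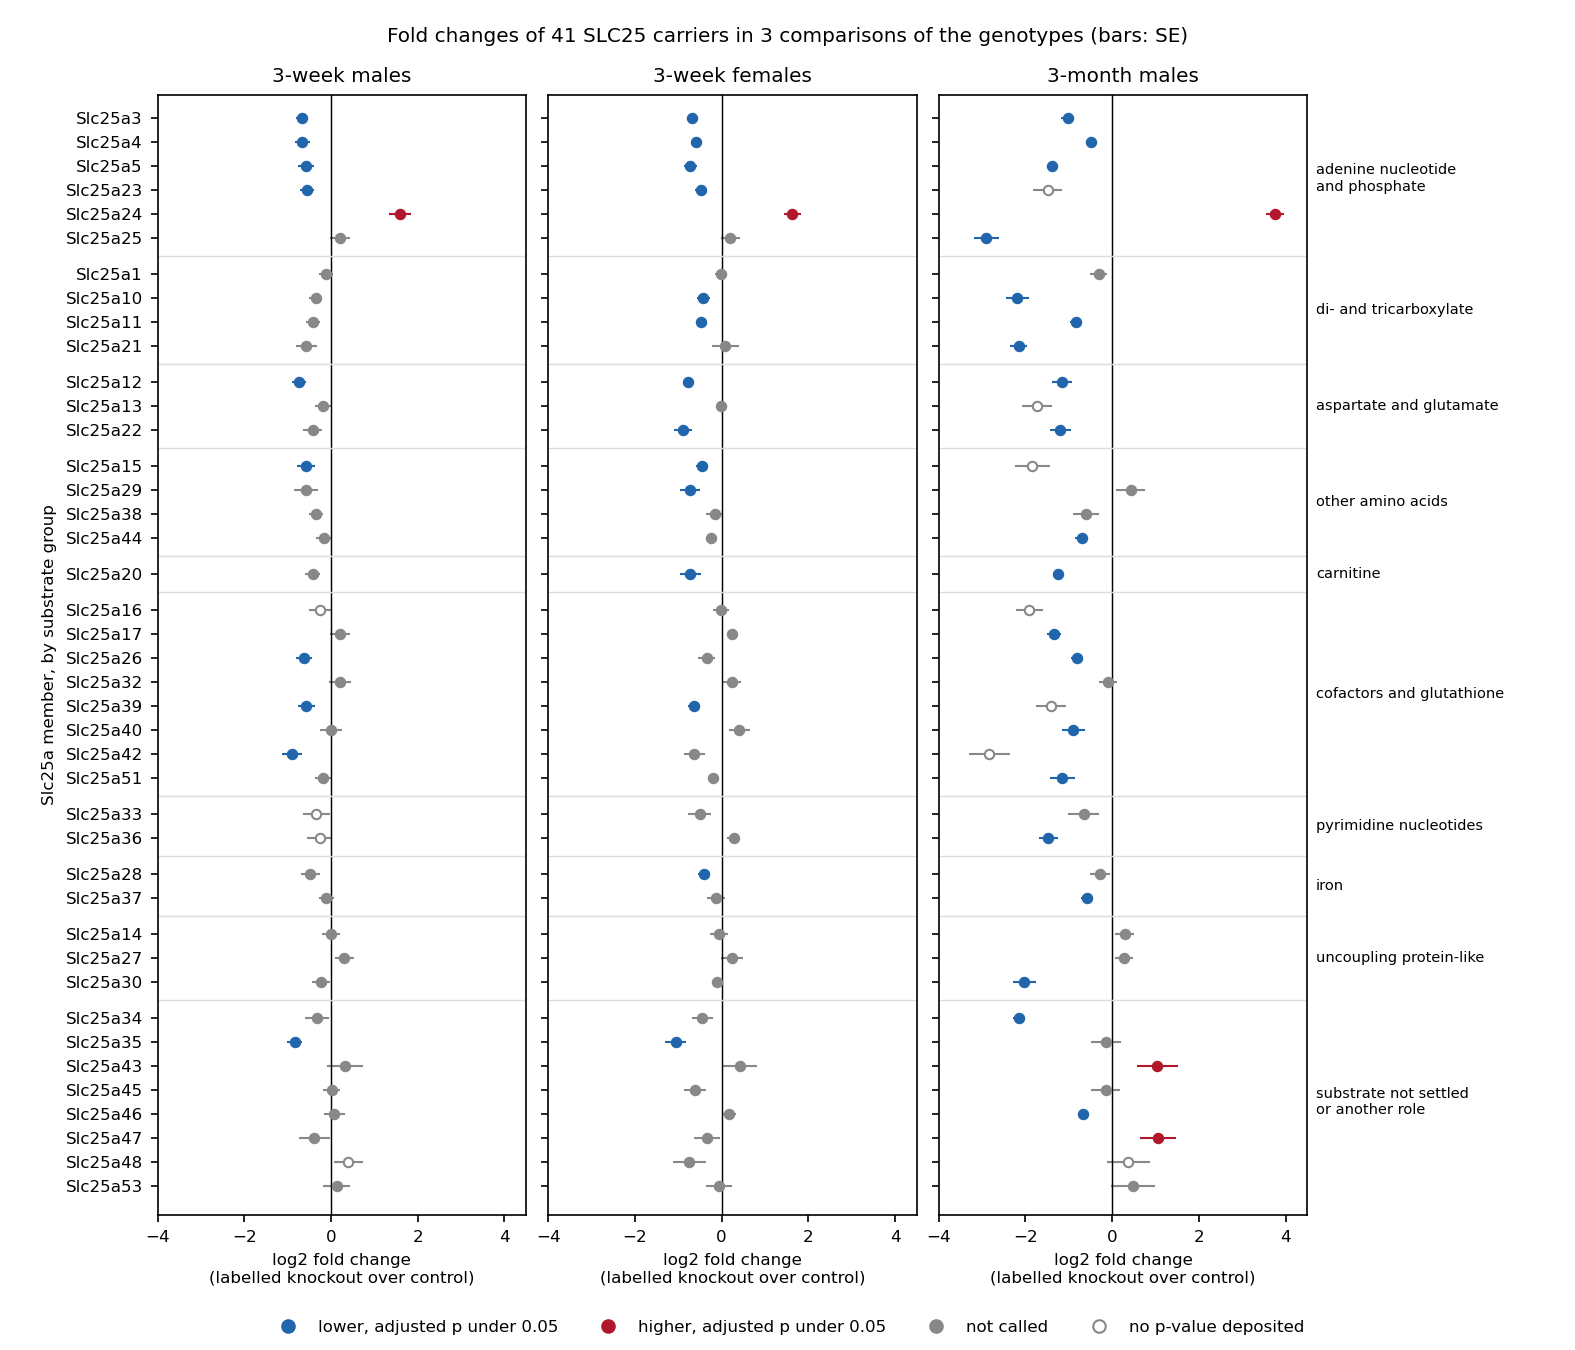
Log2 fold change of each of 41 carriers (rows, by substrate group) in the 3 comparisons (panels), from the authors' deposited tables. Points are fold changes and bars are 1 SE; blue and red mark carriers called lower and higher, filled grey those not called and open grey those without a p-value. Slc25a24 is the only red point in the panels of 3-week kidneys, and 20 blue points stand in the panel of 3-month males.

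Carriers of adenine nucleotides and phosphate, which link the ATP synthase to the rest of the cell, held 4 of the 5 members called in every table. Of 9 members of this group 3 had low counts, and of the 6 others 4 were called lower and 1 higher in each 3-week table. At 3 months 5 were tested, with 4 lower and 1 higher. Of all tested genes 17.3%, 18.7% and 57.5% were called in 3-week males, 3-week females and 3-month males. Slc25a3, the phosphate carrier, lies on chromosome 10 from 91116574 to 91124059 on the minus strand (annotation GENCODE M21, build GRCm38, which is mm10). Its values were -0.67 ± 0.14 (adjusted p = 8.60e-05) for 3-week males, -0.69 ± 0.08 (adjusted p = 3.90e-16) for females and -1.02 ± 0.15 (adjusted p = 2.83e-11) for 3-month males, all log2 fold changes of the authors' deposited DESeq2 tables.

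The ADP/ATP exchangers Slc25a4 and Slc25a5, known as ANT1 and ANT2, were also lower in all 3 tables. Slc25a4, on chromosome 8 from 46206797 to 46211284 on the minus strand, was at -0.66 ± 0.16, -0.58 ± 0.09 and -0.48 ± 0.13 in young males and young females (3 weeks) and older males (3 months) in the authors' deposited tables. Slc25a5, a plus-strand gene of chromosome X at 36795651 to 36798807, was at -0.57 ± 0.19, -0.72 ± 0.15 and -1.38 ± 0.11 in the same order in the authors' deposited tables. Its fold change differed between ages (difference -0.81 ± 0.22, adjusted p = 0.00163 over 12355 genes, a 2-sided normal test on the DESeq2 values), and that of Slc25a4 was not called different. With total-count scaling this difference of Slc25a5 is no longer called (adjusted p = 0.0627). Slc25a4 at 3 months is then at 0.01, the opposite sign, with adjusted p = 0.949, and the call of Slc25a5 in 3-week males ends (adjusted p = 0.131). GENCODE lists a transcribed processed copy, Slc25a5-ps, so part of the reads of Slc25a5 could be shared. Several carriers overlap a gene on the other strand, among them Slc25a25 with Naif1, Slc25a11 with Rnf167 and Slc25a35 with Rangrf, and the strand setting of the counting is not stated.

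The ATP-Mg/phosphate carriers, which adjust the adenine nucleotide pool of the matrix in response to calcium, went in different directions. Slc25a24 was higher in all 3 tables, with 1.59 ± 0.25 (adjusted p = 2.51e-08) for young males and 1.64 ± 0.19 (adjusted p = 2.50e-15) for young females in the authors' deposited DESeq2 tables. In 3-month males it was at 3.75 ± 0.21 (adjusted p = 1.59e-69), a ratio of 13.4, in the authors' deposited DESeq2 table. This plus-strand gene of chromosome 3 spans 109123149 to 109168457, and its mean was 908, 651 and 530 normalized counts in the 3 deposited tables.

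Slc25a25, on chromosome 2 from 32414487 to 32451445 on the minus strand, was not called at 3 weeks, at 0.21 ± 0.23 and 0.20 ± 0.22 in males and females in the authors' deposited tables. In 3-month males the authors' deposited DESeq2 table gave it -2.90 ± 0.30 (adjusted p = 4.81e-21), the lowest value of a tested carrier and a ratio of 0.134. The third of these carriers, Slc25a23, was lower in both 3-week tables, at -0.55 ± 0.16 and -0.48 ± 0.13, and had -1.49 ± 0.33 without a p-value at 3 months in the authors' deposited tables. The 2 calls of Slc25a23 end with total-count scaling (adjusted p = 0.0829 and 0.0504).

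The bases just before the starts of Slc25a24 and Slc25a25, the carriers with the highest and lowest values, are shown from RefSeq on GRCm38.p6, 5′ to 3′ on the strand of the gene. Capitals mark GGGCGG, the GC box bound by Sp1-like factors, or its reverse complement. The Slc25a24 window is chr3:109122999-109123148 on the plus strand, and that of Slc25a25, from the most upstream of its annotated starts, is chr2:32451471-32451620 on the minus strand. Which start was used in these kidneys was not analysed here.
Slc25a24: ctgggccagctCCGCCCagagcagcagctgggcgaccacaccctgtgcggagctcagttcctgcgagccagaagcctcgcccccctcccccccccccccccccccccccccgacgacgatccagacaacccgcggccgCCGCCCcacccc
Slc25a25: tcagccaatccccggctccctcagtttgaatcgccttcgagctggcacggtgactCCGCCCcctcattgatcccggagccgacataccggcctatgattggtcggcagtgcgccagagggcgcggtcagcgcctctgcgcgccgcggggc
The first holds 2 GC boxes and the second 1.

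**Figure D2:**
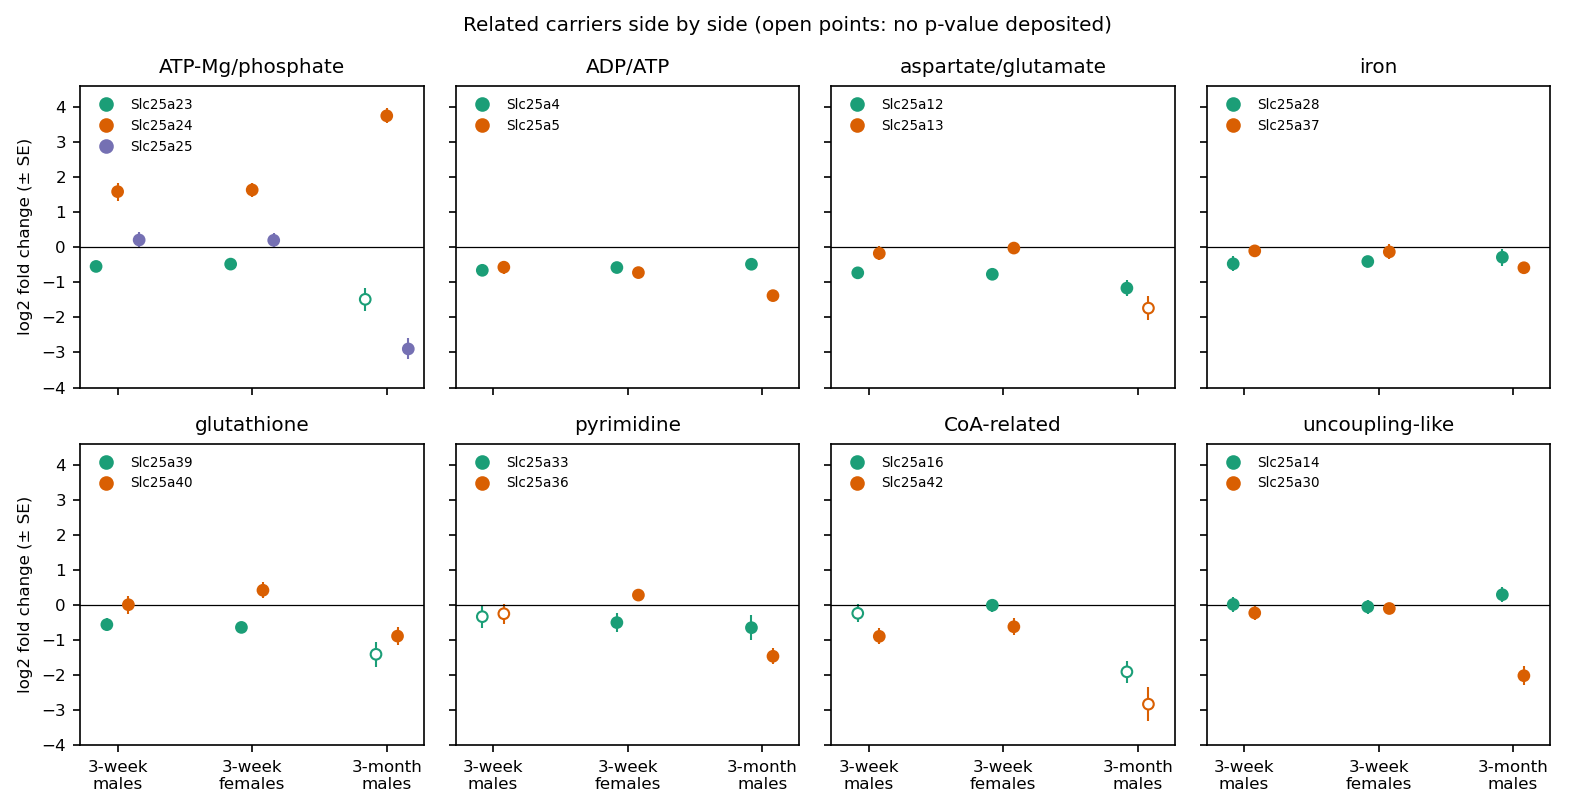
Log2 fold change (± SE) of related carriers in the 3 comparisons from the authors' deposited tables, 1 panel per set of relatives and 1 colour per gene; open points have no p-value. The points of Slc25a24 lie at 1.59, 1.64 and 3.75, while those of Slc25a25 go from 0.21 and 0.20 at 3 weeks to -2.90 at 3 months.

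Carriers of di- and tricarboxylates, which feed the TCA cycle and export its products, were lower at 3 months in 3 of 4 cases. Of all tested genes 27.8% were lower and 57.5% were called at that age. In 3-week males none of the 4 was called, and in females 2 were lower, where 8.52% and 10.4% of all tested genes were lower. Slc25a10, the dicarboxylate carrier, was at -0.35 ± 0.16 and -0.42 ± 0.14 in 3-week males and females and at -2.18 ± 0.27 (adjusted p = 7.20e-15) in 3-month males in the authors' deposited DESeq2 tables. Slc25a21, which carries oxoadipate of lysine breakdown, was at -0.57 ± 0.24, 0.09 ± 0.31 and -2.15 ± 0.20 in the same order in the authors' deposited tables. For both the difference between the ages was called, at -1.83 ± 0.31 and -1.58 ± 0.31. The call of Slc25a10 in females ends with total-count scaling (adjusted p = 0.16).

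Slc25a11, the oxoglutarate/malate carrier of the malate-aspartate shuttle, was at -0.42 ± 0.17, -0.48 ± 0.12 and -0.84 ± 0.12 in young males, young females and older males in the authors' deposited tables. It was called lower in females and at 3 months, and its difference between ages did not pass (adjusted p = 0.108). Slc25a1, the citrate carrier that supplies cytosolic acetyl-CoA, was called in no table and lay between -0.31 and -0.01, with the opposite sign in every table under total-count scaling.

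Of the aspartate and glutamate carriers that serve the malate-aspartate shuttle, Slc25a12 was called in every table and Slc25a13 in none. Slc25a12, called aralar and on chromosome 2 from 71271063 to 71367749 on the minus strand, was lower in every table, at -0.73 ± 0.16, -0.77 ± 0.11 and -1.16 ± 0.23 in the authors' deposited tables. Slc25a13, or citrin, was not called at 3 weeks, at -0.17 ± 0.20 and -0.02 ± 0.11, and had -1.74 ± 0.35 without a p-value at 3 months in the authors' deposited tables. The difference between these relatives within a table was not tested, since their values come from the same libraries.

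Slc25a22, a glutamate carrier, was called lower in females and at 3 months, at -0.89 ± 0.21 and -1.19 ± 0.25, beside -0.42 ± 0.21 for 3-week males in the authors' deposited tables. The related Slc25a18 had means of 0.393 to 1.51 normalized counts and was not tested.

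Among the other amino acid carriers, Slc25a15, which exchanges ornithine and citrulline, was lower in both 3-week tables. The authors' deposited tables gave it -0.58 ± 0.21 and -0.46 ± 0.14, and -1.84 ± 0.40 without a p-value in 3-month males. Slc25a44, which imports branched-chain amino acids, was called at 3 months alone, at -0.71 ± 0.15, after -0.17 and -0.25 at 3 weeks in the authors' deposited tables. Slc25a29, a carrier of basic amino acids, was called in females alone, lower at -0.72 ± 0.23, with -0.57 ± 0.27 in 3-week males and 0.43 ± 0.33 at 3 months in the authors' deposited tables. The calls of Slc25a15 end with total-count scaling in both tables (adjusted p = 0.164 and 0.0897), as do those of Slc25a29 (0.0525) and, at 3 months, Slc25a44 (0.195), while Slc25a29 is then called higher at 3 months (0.93, adjusted p = 0.00958). Slc25a38, a glycine carrier of heme synthesis, was called in no table, and the ornithine carrier Slc25a2 had means of 2.36 to 9.28 normalized counts.

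Slc25a20, which brings acylcarnitines into the matrix for fatty acid oxidation, was at -0.42 ± 0.17 (adjusted p = 0.0697, not called) for young males and -0.72 ± 0.24 (adjusted p = 0.0183) for young females in the authors' deposited DESeq2 tables. At 3 months it was at -1.24 ± 0.11 (adjusted p = 2.92e-26) in the authors' deposited DESeq2 table. Its fold change differed between the ages in males, by -0.82 ± 0.20. The call in females ends with total-count scaling (adjusted p = 0.0645).

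Among carriers of cofactors and glutathione, 4 of 8 tested members were lower in 3-week males and 1 of 9 in females. Of all tested genes 8.52% and 10.4% were lower in these comparisons, and the count in females is near that share. No carrier's fold change was called different between the sexes, so this is no sign of a difference. Slc25a42, a carrier of coenzyme A, was at -0.90 ± 0.23 in 3-week males and -0.63 ± 0.25 (adjusted p = 0.0581, not called) in females, and at -2.83 ± 0.48 without a p-value at 3 months in the authors' deposited DESeq2 tables. Its relative Slc25a16 had -0.24 ± 0.26, -0.01 ± 0.19 and -1.91 ± 0.31, with a p-value in females alone, in the authors' deposited tables.

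Slc25a39, a glutathione importer, was lower in both 3-week tables, at -0.57 ± 0.19 and -0.65 ± 0.12, and had -1.41 ± 0.36 without a p-value at 3 months in the authors' deposited tables. Its relative Slc25a40 was at 0.00 ± 0.26, 0.41 ± 0.23 and -0.89 ± 0.27, and only the last was called. Slc25a26, which imports the methyl donor S-adenosylmethionine, was lower in 3-week males and at 3 months, at -0.62 ± 0.18 and -0.81 ± 0.14, with -0.34 ± 0.20 in females in the authors' deposited tables. With total-count scaling the calls in 3-week males of Slc25a39 and Slc25a26 end (adjusted p = 0.146 and 0.059), and so does that of Slc25a40 at 3 months (0.179).

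Slc25a17, a carrier of cofactors in the peroxisome membrane, and Slc25a51, the NAD+ importer, were lower at 3 months. Slc25a17 was at 0.21 ± 0.22, 0.24 ± 0.09 and -1.35 ± 0.16 in young males, young females and older males in the authors' deposited tables. Slc25a51 was at -0.19 ± 0.18, -0.19 ± 0.10 and -1.15 ± 0.29 in the same order in the authors' deposited tables. Both differed between the ages in males, by -1.56 ± 0.28 and -0.97 ± 0.34, and with total-count scaling the difference of Slc25a51 is lost (adjusted p = 0.125) and Slc25a17 is called higher in 3-week females (0.39, adjusted p = 0.000421). Slc25a32, linked to folate and FAD, was called in no table.

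The paired carriers of pyrimidine nucleotides and of iron gave calls for 1 relative at a time. Slc25a36, for pyrimidine nucleotides, was at -1.47 ± 0.22 at 3 months, after -0.25 ± 0.29 without a p-value in 3-week males and 0.28 ± 0.16 in females in the authors' deposited tables. Slc25a33, its relative, was called in no table, with values between -0.65 and -0.34, and had no p-value in 3-week males. With total-count scaling Slc25a36 is called higher in 3-week females (0.43, adjusted p = 0.0324).

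Of the mitoferrins, which bring iron to heme and iron-sulfur cluster synthesis, Slc25a28 was lower in females at -0.41 ± 0.14 and Slc25a37 at 3 months at -0.58 ± 0.13 in the authors' deposited tables. The other values of Slc25a28 were -0.47 ± 0.21 and -0.28 ± 0.24, and those of Slc25a37 -0.10 ± 0.17 and -0.13 ± 0.21, none of them called. With total-count scaling both calls end (adjusted p = 0.168 and 0.539).

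Of the carriers related to uncoupling proteins, Slc25a30, first described as a kidney mitochondrial carrier, was at -0.23 ± 0.21 and -0.11 ± 0.12 at 3 weeks and at -2.02 ± 0.27 (adjusted p = 3.26e-13) at 3 months in the authors' deposited DESeq2 tables. The age difference in males was -1.79 ± 0.34 (adjusted p = 2.69e-06 over 12355 genes, normal test on the DESeq2 values). Slc25a14 and Slc25a27, expressed mainly in the nervous system, were called in no table and lay between -0.06 and 0.31. With total-count scaling both are called higher at 3 months, Slc25a14 at 0.78 (adjusted p = 0.000811) and Slc25a27 at 0.77 (adjusted p = 0.000298).

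Among carriers whose substrate is not settled, Slc25a34 was at -2.15 ± 0.15 at 3 months after -0.32 ± 0.28 and -0.44 ± 0.24 at 3 weeks in the authors' deposited tables. Its close relative Slc25a35 showed calls at the other age. It was at -0.84 ± 0.17 and -1.06 ± 0.25 in 3-week males and females, both called, and at -0.14 ± 0.34, not called, at 3 months in the authors' deposited tables, and its difference between the ages was not called (adjusted p = 0.164).

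Slc25a46, a member of the outer membrane that acts in mitochondrial dynamics, was at 0.07 ± 0.24, 0.17 ± 0.17 and -0.68 ± 0.11 in young males, young females and older males in the authors' deposited tables. Only the last was called, and the call ends with total-count scaling (adjusted p = 0.126). Slc25a47 and Slc25a43 were higher at 3 months, at 1.07 ± 0.41 (adjusted p = 0.0193) and 1.04 ± 0.47 (adjusted p = 0.0483) in the authors' deposited DESeq2 table, with means of only 37.5 and 11.9 normalized counts. Slc25a45, Slc25a48 and Slc25a53 were called in no table, and Slc25a48 had no p-value in 3-week or 3-month males.

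Of the 47 carriers 5 had low counts in every table: Slc25a2, Slc25a18, Slc25a31, Slc25a41 and Slc25a54. Slc25a31 encodes the testis form of the ADP/ATP exchanger, with means of 1.14 to 3.54 normalized counts, and Slc25a54 was listed at 0. Without a p-value, by the status Outlier, were 4 carriers in 3-week males and 8 in 3-month males, of which 3 and 7 were negative.

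The male and female kidneys at 3 weeks gave like values for the family. Over the 38 carriers tested in both tables Pearson's r of the fold changes was 0.89, and over all 13737 genes it was 0.86, both across genes, which are not independent. No carrier differed between the sexes by the normal test on the DESeq2 values at an adjusted p under 0.05, and none at an unadjusted p under 0.05. Over all genes 0% differed, with 237 at an unadjusted p under 0.05. The tables share no labelled library, and p-values that miss the threshold do not show that the sexes respond alike.

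Between 3 weeks and 3 months in males the fold changes of 12 of 32 carriers differed, 10 towards lower and 2 towards higher values at 3 months, where 27.7% of all genes tested in both tables did so, 10.9% towards lower and 16.8% towards higher values. The median difference was -0.39 over the carriers and 0.04 over all genes. Largest in size were those of Slc25a25 at -3.11 ± 0.38 (adjusted p = 5.30e-14) and Slc25a24 at 2.16 ± 0.33 (adjusted p = 3.31e-09), by the normal test on the DESeq2 values. Slc25a3 and Slc25a12, lower at both ages, were not called different. The largest SE of a gene was 0.44 in 3-week males and 1.10 in 3-month males. Slc25a41, with a mean of 0.23 normalized counts in 3-week females, had an SE of only 0.11. Such small SEs at low counts are those of shrunken fold changes, though the method is not stated. Sizes compared across the tables, and the normal test on their differences, carry this limit.

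**Figure D3:**
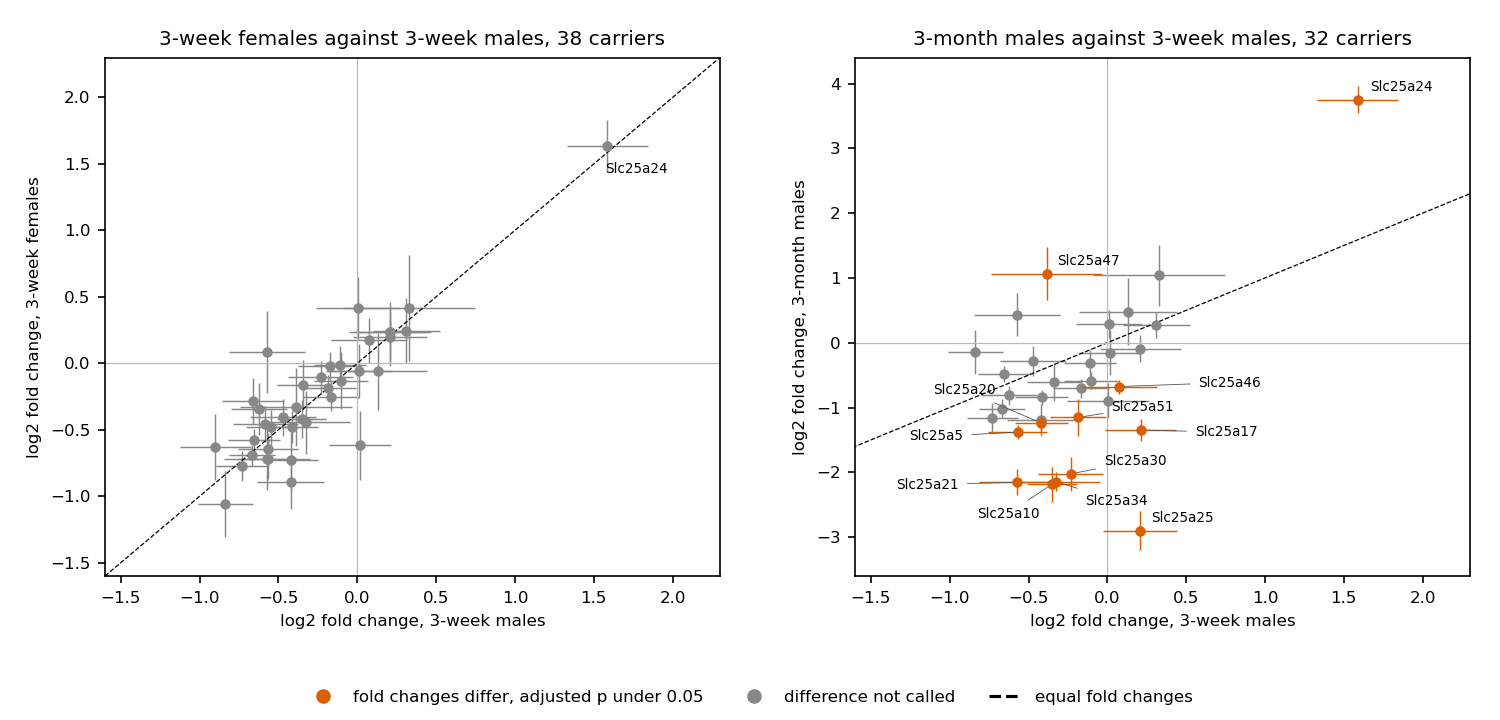
Log2 fold change of each carrier in 3-week males (x axis) against 3-week females (left, 38 carriers) and 3-month males (right, 32 carriers, with a longer y axis); bars are 1 SE and the dashed line marks equal values. The 12 orange points at right differ between the ages, with Slc25a24 at 3.75 and Slc25a25 at -2.90 on the y axis, and no point at left is orange.

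Levels were compared between carriers per kilobase of merged exons, within a table. In 3-week males Slc25a5 had 29667 normalized counts per kilobase, 31.1% of the sum over the family, followed by Slc25a4 with 11690, Slc25a10 with 9230, Slc25a39 with 8302 and Slc25a3 with 6701. Slc25a24 stood at 265 and Slc25a12 at 542, so the carrier that rose was scarce beside the abundant exchangers. Of the 10 tested carriers with the highest levels per kilobase, 4 were lower in young males, 6 in young females and 9 in 3-month males, and none was higher in any table. At 3 months Slc25a1 was the exception, and Slc25a39, at rank 2 by level, had no p-value and is not among the 10. Of all tested genes 8.52%, 10.4% and 27.8% were lower in the 3 comparisons, and genes of like level were not compared. The rank correlation of level and fold change over tested carriers was -0.25, -0.28 and -0.59 in the same order, a description across genes in which the level also holds the knockout libraries.

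**Figure D4:**
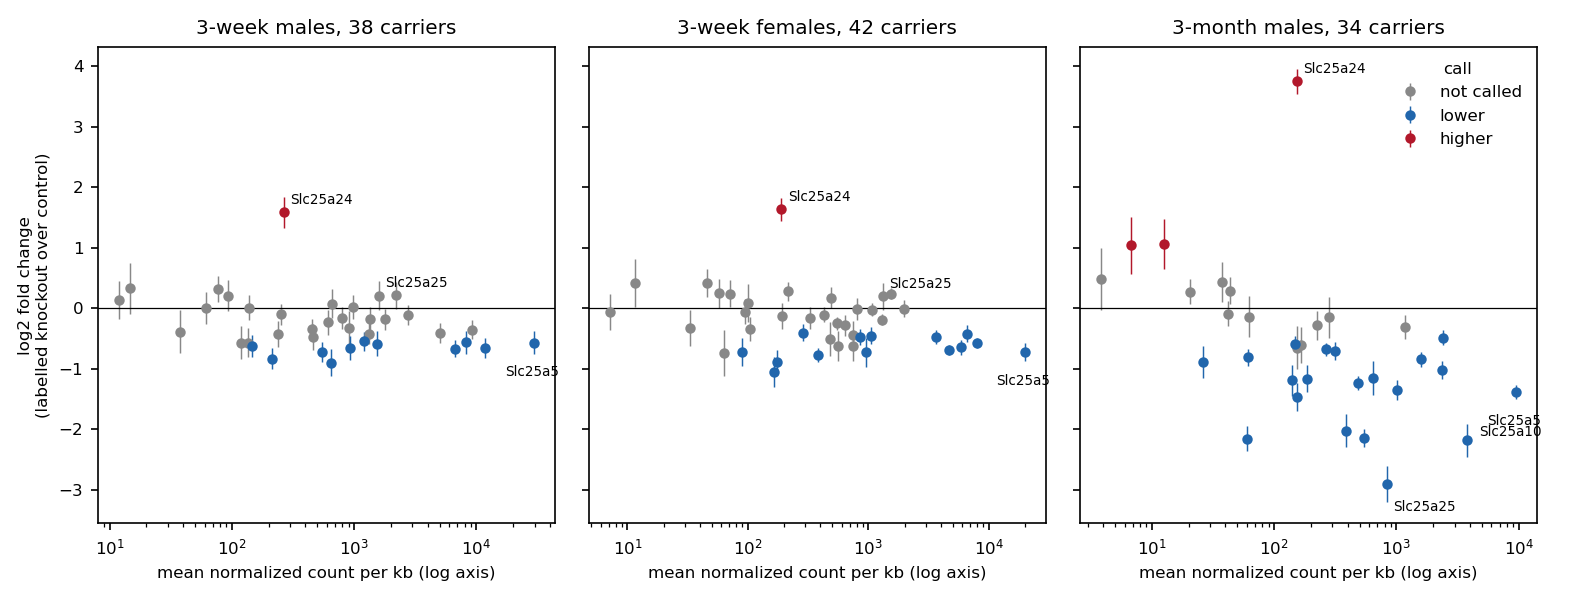
Mean normalized count per kilobase of merged exons (x axis, log scale) against the log2 fold change with 1 SE (y axis) for the tested carriers of each comparison. The most abundant carriers lie below 0 in the panel of 3-month males, with Slc25a5 at -1.38, while Slc25a24 at 3.75 has a level in the middle of the range.

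Partners of the carriers were taken from lists set beside them. Of all tested genes 8.52%, 10.4% and 27.8% were lower in 3-week males, 3-week females and 3-month males. The enzymes of the malate-aspartate and glycerol phosphate shuttles were lower in 5 of 6 tested cases in both 3-week tables and in 5 of 5 at 3 months. Mdh2, the mitochondrial malate dehydrogenase, was at -0.61 ± 0.17, -0.68 ± 0.11 and -0.85 ± 0.21 in the authors' deposited tables. Mdh1, the cytosolic malate dehydrogenase, was at -0.78 ± 0.14, -0.57 ± 0.18 and -1.53 ± 0.21, and Gpd1, glycerol-3-phosphate dehydrogenase, at -1.02 ± 0.21, -1.20 ± 0.18 and, without a p-value, -2.33 ± 0.39 in the authors' deposited tables. Of the carnitine shuttle genes 4 of 6 were lower and 1 higher in 3-week males, 4 of 5 lower in females and 4 of 5 lower with 1 higher at 3 months. Among them Slc22a5, the plasma membrane carnitine transporter, was at -0.80 ± 0.16, -0.59 ± 0.12 and -2.22 ± 0.30 in the authors' deposited tables. Cpt2 was at -0.78 ± 0.20, -0.84 ± 0.14 and -2.04 ± 0.30 in the authors' deposited tables. Cpt1b, the muscle form of the first enzyme of the shuttle, was at -1.39 ± 0.37 in 3-week males (adjusted p = 0.00218) in the authors' deposited DESeq2 table and had no adjusted p-value in the others. With total-count scaling the shuttle enzymes called lower are 2, 4 and 4, with Mdh2 not called in 3-week males and at 3 months (adjusted p = 0.0512 and 0.13) nor Mdh1 in females (0.0688), and the carnitine genes called lower are 3, 3 and 4.

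Other mitochondrial carriers and channels, a list of 13 genes in the tables, were lower in 3 cases in 3-week males, in 5 in females and in 7 of 11 with 1 higher at 3 months. Both subunits of the pyruvate carrier were lower in each table, with Mpc1 at -0.72 ± 0.15, -0.59 ± 0.11 and -1.40 ± 0.18 and Mpc2 at -0.60 ± 0.14, -0.64 ± 0.11 and -0.83 ± 0.17 in the authors' deposited tables. Letm1, a cation carrier, was at -0.60 ± 0.15, -0.79 ± 0.13 and -1.27 ± 0.23 in the authors' deposited tables. With total-count scaling this list has 4 lower and 4 higher at 3 months, where the call of Mpc2 ends (adjusted p = 0.0625). The machinery that inserts carriers into the inner membrane, of which 7 genes were tested, had no call in 3-week males and 1 lower in females. At 3 months it had 2 lower and 1 higher, where 57.5% of all tested genes were called. Its chaperones Timm10 and Timm13 were called lower at 3 months, at -0.42 ± 0.11, and in females, at -0.30 ± 0.09, in this order in the authors' deposited tables. Timm22, its channel, was called in no table, at -0.25 ± 0.16, -0.20 ± 0.14 and -0.17 ± 0.10 in the authors' deposited tables. With total-count scaling the call of Timm13 in females ends (adjusted p = 0.217), and at 3 months these 3 genes turn sign, Timm10 to 0.08 without a call and Timm22 and Timm13 to 0.32 and 0.41, both called higher. The other calls of this list at 3 months, named after its values were seen, were Timm9 at -1.03 ± 0.23 and Timm10b at 0.40 ± 0.11 in the authors' deposited table. Both calls stay with total-count scaling, at -0.53 (adjusted p = 0.0373) and 0.89 (adjusted p = 1.77e-15).

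SLC25 proteins under other symbols had no call at 3 weeks, where 3 of 5 were tested in males and 2 of 5 in females. The others had no p-value there. At 3 months Mtch2 was at -0.67 ± 0.13 and Mtch1 at 0.26 ± 0.09, both called, and Ucp2 at 0.61 ± 0.28 was not (adjusted p = 0.0531) in the authors' deposited DESeq2 table. The other call of this list, named after its values were seen, was Ucp3 at 1.96 ± 0.51 (adjusted p = 0.000319) with a mean of 25.8 normalized counts in the authors' deposited DESeq2 table. With total-count scaling the call of Mtch2 ends (adjusted p = 0.256) and Ucp2 is called higher (1.11, adjusted p = 0.000232). Ucp1, the uncoupling protein of brown fat, named after its values were seen, had means of 2375, 882 and 7.95 normalized counts in young males, young females and older males in the authors' deposited tables, without an adjusted p-value.

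Markers of kidney and of other cell types moved in the same tables, and none was at 0 in any of them. Their counts stand against the shares of all tested genes called lower and higher in each comparison, given above. Proximal tubule markers were lower in 8 of 10 tested cases in 3-week males, 4 of 8 in females and 3 of 3 at 3 months, with medians of -0.81, -0.37 and -3.13. Thick ascending limb markers were lower in 4 of 5, 4 of 5 and 1 of 1 cases, and distal convoluted tubule markers in 3 of 4, 3 of 3 and 2 of 2. At 3 months 5 of 6 thick ascending limb markers had no p-value, with values from -3.44 to 0.10, as had 7 of 10 proximal tubule markers, from -2.68 to -2.13. Collecting duct markers were split, with 2 lower and 2 higher of 4, 1 lower of 2, and 2 higher of 2, and the 4 without a p-value at 3 months ran from -5.32 to 2.29. Immune cell markers were higher in 6 of 9, 6 of 9 and 8 of 8 cases, with medians of 1.31, 0.80 and 3.75. Fibroblast markers were higher in 1 of 2, 4 of 7, with 1 lower, and 4 of 4 cases. Fat cell markers were mostly without a p-value, and the 2 tested at 3 months were both higher, with a median of 4.03. In a whole kidney, fewer cells of a type and less RNA per cell cannot be told apart, and the part of these cell types in the carriers' changes was not tested.

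Promoter sequences were looked up in RefSeq on GRCm38.p6, where 36 of the 47 carriers matched, with 46 annotated starts. The 250 bases before each start were searched on both strands. TNAAGGTCA, the ERR response element, was in none of the 36, and in 1.11% of 17492 protein-coding genes. AAGGTCA, the part of that element that ERR shares with other receptors, was in 1 carrier, Slc25a34 (2.78% against 4.18% of protein-coding genes). CCGGAAG, the core of ETS factor sites, was in 6 carriers (16.7% against 10.2%), and the NRF1 consensus in 2 (5.56% against 5.84%). GGGCGG was in 25 carriers (69.4% against 45.8%). A site farther from the start would not be seen here.

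The matches in Slc25a34, lower at 3 months, and in Slc25a3, lower in every table, are shown because these windows hold the receptor motif and the sites of both respiratory factor types; capitals mark the match. They are chr4:141623922-141623978, chr10:91124147-91124206 and chr10:91124111-91124167 on the minus strand of GRCm38.p6, 5′ to 3′ on the strand of the gene. In the first the match is the reverse complement of AAGGTCA.
Slc25a34 receptor motif: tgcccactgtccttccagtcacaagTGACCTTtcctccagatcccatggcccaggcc
Slc25a3 NRF1 type: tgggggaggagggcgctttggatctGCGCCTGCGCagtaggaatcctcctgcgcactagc
Slc25a3 ETS core: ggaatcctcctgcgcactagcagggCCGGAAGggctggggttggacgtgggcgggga
The 2 windows of Slc25a3 overlap.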

How the data were processed

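Polyadenylated RNA of 15 kidneys was sequenced from stranded libraries, per the labels' protocols, and groups were taken from the titles. The submitters' processing notes name mm10, STAR, HOMER and DESeq2, without versions. Per the file headers, 3 DESeq2 comparison tables were deposited. The authors' mean normalized count is used as a signal, beside the log2 fold change the authors fitted, its SE, and the deposited raw and adjusted p-values with a status. Recomputing p from fold change and SE gave the deposited p-values. The spread behind them is that of the libraries used, perhaps fewer than labelled, and may be technical. No count model could be refitted. How strand was used in counting is not stated.

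Calls are the authors' adjusted p under 0.05 over all tested genes. Fold changes of 2 tables were compared by a 2-sided normal test on their difference and summed squared SEs. Benjamini-Hochberg adjustment was over all genes tested in both, using Python 3.11.15, scipy 1.17.1 and pandas 2.3.3. Whether this normal test holds for shrunken fold changes and their SEs was not tested. Both such tests use the table of 3-week males. Symbols turned into dates were left out. Total-count scaling was computed from the means, the fold changes and the numbers of libraries read from the steps of the lowest means. Named are the carriers called in any table, except 1 that is counted but not reported here, their listed relatives, and up to 3 partners per list with the smallest p in 3-week males. The carriers and lists were chosen with earlier results of these data known. Alternatives were stricter thresholds, other filters and other scalings.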

Additional observations from a re-analysis of the deposited data

Results flagged for a closer look

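Fold changes that differed between 3-month and 3-week males by the normal test on the difference, adjusted over 12355 genes, were those of 12 carriers. Lower at 3 months than at 3 weeks, by differences of log2 fold changes, were Slc25a25 (-3.11), Slc25a10 (-1.83), Slc25a34 (-1.82), Slc25a30 (-1.79), Slc25a21 (-1.58), Slc25a17 (-1.56), Slc25a51 (-0.97), Slc25a20 (-0.82), Slc25a5 (-0.81) and Slc25a46 (-0.75). Towards higher values went Slc25a24 (2.16) and Slc25a47 (1.45). For Slc25a25, Slc25a17, Slc25a46 and Slc25a47 the fold changes at the 2 ages also had opposite signs, with those at 3 weeks not called. The labels give the same strain and genotypes at both ages. Titles and sex labels also give the same sex, while the source names of the 3-month knockout libraries say female. The groups are separate mice, and age and the run or batch of each age cannot be told apart.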

How the results depend on the processing

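Counts of called carriers stayed within 1.5 times under each of the 6 alternatives in 3-week females (10 to 15, against 15) and 3-month males (21 to 28, against 23), and in 3-week males (9 to 12, against 12) except with total-count scaling, where 6 remained. With total-count scaling the carriers' median in 3-month males moved to -0.20. Signs of tested values turned with total-count scaling in 3-week males for Slc25a1 (0.0685), Slc25a13 (0.00324), Slc25a37 (0.0749) and Slc25a44 (0.0119), in 3-week females for Slc25a1 (0.138), Slc25a13 (0.127), Slc25a14 (0.0904), Slc25a16 (0.136), Slc25a30 (0.0436), Slc25a37 (0.0184) and Slc25a53 (0.0883), and in 3-month males for Slc25a1 (0.185), Slc25a4 (0.0101), Slc25a28 (0.211), Slc25a32 (0.402), Slc25a35 (0.356) and Slc25a45 (0.342). Of these only Slc25a4 had been called. Slc25a43 at 3 months lost its call also without a filter (adjusted p = 0.0559), with centring (0.0507) and at the stricter threshold. The 12 age differences kept their direction under every alternative that could give a value. With total-count scaling, added after the data were seen, those of Slc25a5, Slc25a46 and Slc25a51 lost their calls (adjusted p = 0.0627, 0.195 and 0.125). Of the 11 carriers that then differed, 9 were among the 12, and the others had not been called on the authors' scale. With no filter on status the carriers called in 3-month males were 26 lower and 2 higher. The shares of all genes called under these alternatives are not given here, so the counts under them show no excess or lack of calls. Leaving out single libraries was not run, since the tables hold no value per library. No paired analysis was possible because the tables carry no replicate numbers and the labels number the libraries without repeats.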
